A study of Mus musculus with 26 samples.

Results

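Integrins are adhesion receptors made of an alpha and a beta chain, and a T cell carries only the pairs for which it makes both chains. Itgae with Itgb7 forms the receptor for E-cadherin on epithelium (CD103 is its alpha chain), and Itga4 pairs either with Itgb7, to bind the gut addressin MAdCAM-1, or with Itgb1, to bind VCAM-1 and fibronectin. Itgal with Itgb2 forms LFA-1, the receptor for ICAM-1 that holds the synapse with a target cell and serves the retention of T cells in liver sinusoids. The 10 T cell integrin genes examined here were Itgae, Itgb7, Itga4, Itgb1, Itgal, Itgb2, Itga1, Itga6, Itgav and Itgb3. They were chosen by their RNA levels in the control and liver libraries, which were already known, so their differences from control are given as descriptions and without tests. They were 10 of 26 integrin subunit genes and 10 of 35944 annotated genes with a value, and all 10 were among the 15465 genes that passed the filter on low counts.

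RNA came from TCRTg101 T cells, CD8+ T cells that all bear the same transgenic receptor, which recognizes C1498 cells, a mouse acute myeloid leukemia line. Per the methods, the cells came from receptor-transgenic mice and were transferred into congenic hosts that received C1498 by vein 1 day later. The labels give C57BL/6, an age of 6 weeks and a wild type genotype for every library. The groups were control (3 libraries from spleen, 2 from naive cells at day 0 and 1 taken without leukemia at day 18), undivided cells with a high level of the division dye CellTrace Violet from leukemia-bearing mice at day 18 (1, spleen), leukemia spleen at day 7 (2) and day 14 (1), and leukemia liver at day 7 (2), at days 13 and 14 (3, "mid") and at days 16 and 18 (2, "late"). A further library, 1 naive sample primed with oligo-dT, was kept apart from these 14 low-input libraries. Every control came from spleen, so leukemia and tissue cannot be told apart in a comparison of liver with control. The labels do not say whether each library came from a separate mouse, and p-values measure only the spread between libraries. In bulk RNA, fewer cells of a type and less RNA per cell cannot be told apart.

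Depth, as the sum of estimated counts, was 28320039 to 65615912 in control, 29079942 in undivided cells, 22918996 to 33482219 in day 7 spleen, 35216418 in day 14 spleen, 30276723 to 38324722 in day 7 liver, 28413340 to 71358287 in mid liver and 37454771 to 64103320 in late liver. Levels of 1 gene across libraries are given as CPM, counts relative to the total of the library scaled by TMM, and levels of different genes are compared only as TPM, which also correct for transcript length. The label of CD8+ T cells fits their defining genes: Cd8a lay at 506.4 to 1585 CPM and Cd3e at 700.8 to 1399 CPM in all 14 libraries, while Cd4 lay at 0.130 to 5.35 CPM. The other 2 genes of the CD4 T cell list rose in late liver. Zbtb7b, a factor of the CD4 lineage, was at 1.39, 0.723 and 0.162 CPM in control and at least 8.22 CPM in both late liver libraries (log2 difference 3.51, SE 0.87, edgeR adjusted p = 0.0151), and it passed in mid liver too (2.83, adjusted p = 0.0307). Foxp3, the factor of regulatory T cells, was at 0.614, 0.801 and 0.260 CPM in control and 2.22 and 2.98 CPM in late liver (2.22, SE 0.73, edgeR adjusted p = 0.0399). The 3 genes summed to 7.35, 4.16 and 0.552 CPM in control and 11.8 and 11.9 CPM in late liver, and their part in the integrin values was not tested. Some libraries stood apart. The day 7 liver libraries were unlike each other, and each result that rests on them is given for both. Control libraries 1 and 2 held erythroid RNA (a summed 5234 and 20350 CPM over 6 genes, against 136.3 in control 3), and control 1 held macrophage RNA (a summed 1008 CPM over 9 genes, against 149.0 and 10.5 in controls 2 and 3). Control 1 also held granulocyte RNA (a summed 164.7 CPM over 6 genes, against 26.8 and 9.77 in controls 2 and 3). The part of this RNA in the control values, Itgb2 among them, was not tested. Library titles fall into a TG and an XC series. Control 1, mid liver 1 and late liver 1 belong to TG and the rest to XC.

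In the GRCm38 annotation (GENCODE M21) the genes lie apart from each other on 7 chromosomes. Itgae is at chr11:73090583-73147446 on the plus strand and Itgb3 at chr11:104608000-104670476 on the plus strand. Itga6 (chr2:71745616-71858416), Itga4 (chr2:79255426-79333123) and Itgav (chr2:83724397-83806916) are on the plus strand of chromosome 2. Itgb7 is at chr15:102215995-102231944 on the minus strand, Itgb1 at chr8:128685654-128733200 on the plus strand, Itgal at chr7:127296260-127335138 on the plus strand, Itgb2 at chr10:77530252-77565708 on the plus strand and Itga1 at chr13:114953096-115101964 on the minus strand. All are protein-coding. Cerkl, on the opposite strand, shares 1124 of the 13978 exon bases of Itga4, and its mean in control was 5.73 CPM. Gm49395, on the same strand, shares 685 of the 18599 exon bases of Itga1, with a control mean of 0.257 CPM, and Gm13684, on the opposite strand, shares 634 of the 10744 exon bases of Itgav.

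Promoter sequence is shown for the subunits that share partners, Itgb7, Itgb1 and Itga4, since Itgb7 and Itgb1 compete for the Itga4 chain and their RNA moved apart in these libraries. RefSeq (GRCm38.p6) gave promoters for 5 of the 10 genes. The lines hold the 250 bases before the start of the gene in RefSeq, 5′ to 3′ along the gene, at chr15:102231936-102232185 (minus), chr8:128685404-128685653 (plus) and chr2:79255176-79255425 (plus). Capitals mark every match, on either strand, to the letters CACCC (a KLF motif), TGTGGT (RUNX), GTGTGA (T-box), GGAAAA (NFAT) and TGANTCA (AP-1).
Itgb7: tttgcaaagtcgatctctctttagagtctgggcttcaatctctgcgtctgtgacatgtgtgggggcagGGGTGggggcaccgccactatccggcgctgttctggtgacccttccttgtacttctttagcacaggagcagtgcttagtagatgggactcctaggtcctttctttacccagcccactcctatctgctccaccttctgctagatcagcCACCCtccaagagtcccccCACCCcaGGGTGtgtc
Itgb1: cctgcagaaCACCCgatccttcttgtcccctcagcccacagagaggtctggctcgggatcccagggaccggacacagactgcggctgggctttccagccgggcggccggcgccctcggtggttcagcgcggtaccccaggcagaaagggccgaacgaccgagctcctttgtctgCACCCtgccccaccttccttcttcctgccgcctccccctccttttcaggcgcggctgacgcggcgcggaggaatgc
Itga4: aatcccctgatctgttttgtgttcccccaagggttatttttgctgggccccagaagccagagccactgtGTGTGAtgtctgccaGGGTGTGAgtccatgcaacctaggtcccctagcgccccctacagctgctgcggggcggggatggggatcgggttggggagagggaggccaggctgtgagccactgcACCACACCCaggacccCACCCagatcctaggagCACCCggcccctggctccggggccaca

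In the GENCODE annotation Itgb7 starts further upstream, so the last 9 bases of its line, with 1 of the KLF matches, lie inside that gene model. The KLF letters matched 4 times in the window of Itgb7, 2 times before Itgb1 and 4 times before Itga4, and 52.0% of 32851 promoters of the same length held at least 1 match. The T-box letters matched 2 times before Itga4, at 181 and 164 bases before the start, and 12.3% of promoters held a match. The RUNX letters matched 1 time before Itga4, at 60 bases before the start on the other strand, against 14.1% of promoters. The RUNX match overlaps a KLF match, and the T-box match nearer to the start overlaps another KLF match. The NFAT letters (20.4% of promoters) and the AP-1 letters (6.75%) had no match in these 3 windows. A match describes the letters alone.

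Itgae, the alpha chain of the E-cadherin receptor, had the lowest late liver level relative to control of the 10 genes. It was at 97.1, 167.8 and 221.4 CPM in controls 1 to 3 and at 172.3 CPM in undivided cells. In leukemia spleen it was at 171.6 and 166.8 CPM at day 7 and 76.8 CPM at day 14. In liver it was at 42.9 and 314.3 CPM at day 7, at 12.2, 37.8 and 19.6 CPM in mid libraries and at 7.52 and 8.17 CPM in late libraries. All 5 mid and late liver libraries lay below every control, and the 2 day 7 liver libraries fell on either side of the control range. The day 14 spleen library lay below every control in CPM, but in TPM (21.4) it lay above control 1 (19.6). Control exceeded late liver 20.7-fold and mid liver 6.99-fold by group means. The fitted log2 difference from control was -4.12 (SE 0.83) in late and -2.83 (SE 0.65) in mid liver. Within the TG series (1 control) the difference of mean log2 CPM was -3.00 in mid and -3.69 in late liver, and within the XC series (2 controls) it was -2.82 and -4.56. In ascending order of group means Itgae ran late liver, mid liver, day 14 spleen, control, day 7 spleen, undivided and day 7 liver, and from control upward the libraries of these groups overlapped.

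Itgb7, the beta chain that Itgae needs and that Itga4 can use, kept a high level throughout. It was at 1145, 1041 and 1122 CPM in control and 1012 CPM in undivided cells. In liver it was at 561.0 and 1351 CPM at day 7, at 1021, 787.3 and 931.2 CPM in mid libraries and at 839.1 and 681.7 CPM in late libraries. The mid and late liver libraries all lay below the lowest control, but mid liver 1 was close to it. Of the leukemia spleen libraries (1110 and 944.6 CPM at day 7, 1102 CPM at day 14) 1 lay below every control too, but not without TMM scaling (1146 CPM, against 1076 CPM in control 2). Beside the values of its partner Itgae, the fitted log2 difference of Itgb7 was small, at -0.58 (SE 0.32) in late and -0.28 (SE 0.28) in mid liver.

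Itgb1, the shared beta chain of the VLA receptors for matrix proteins and VCAM-1, was higher in liver. It was at 51.0, 86.1 and 75.2 CPM in control, at 71.2 CPM in undivided cells, and at 123.9 and 73.0 CPM in day 7 spleen. The day 14 spleen library held 388.3 CPM. In liver the level was 399.6 and 74.9 CPM at day 7, 202.2, 620.0 and 1553 CPM in mid libraries and 375.4 and 509.5 CPM in late libraries. Every mid and late liver library and the day 14 spleen library lay above every control, and day 7 liver 1 lay with them whereas day 7 liver 2 lay within the control range. The group mean was 11.2 times the control mean in mid liver (791.8 ± 691.8 CPM, SD, n = 3) and 6.25 times in late liver (442.5 ± 94.8 CPM, SD, n = 2). Fitted log2 differences from control were 3.25 (SE 0.72) in mid and 2.88 (SE 0.74) in late liver. The mid mean rests largely on mid liver 3, and without any 1 library the fitted mid difference ran from 2.55 (without mid liver 3) to 3.78.

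**Figure D1:**
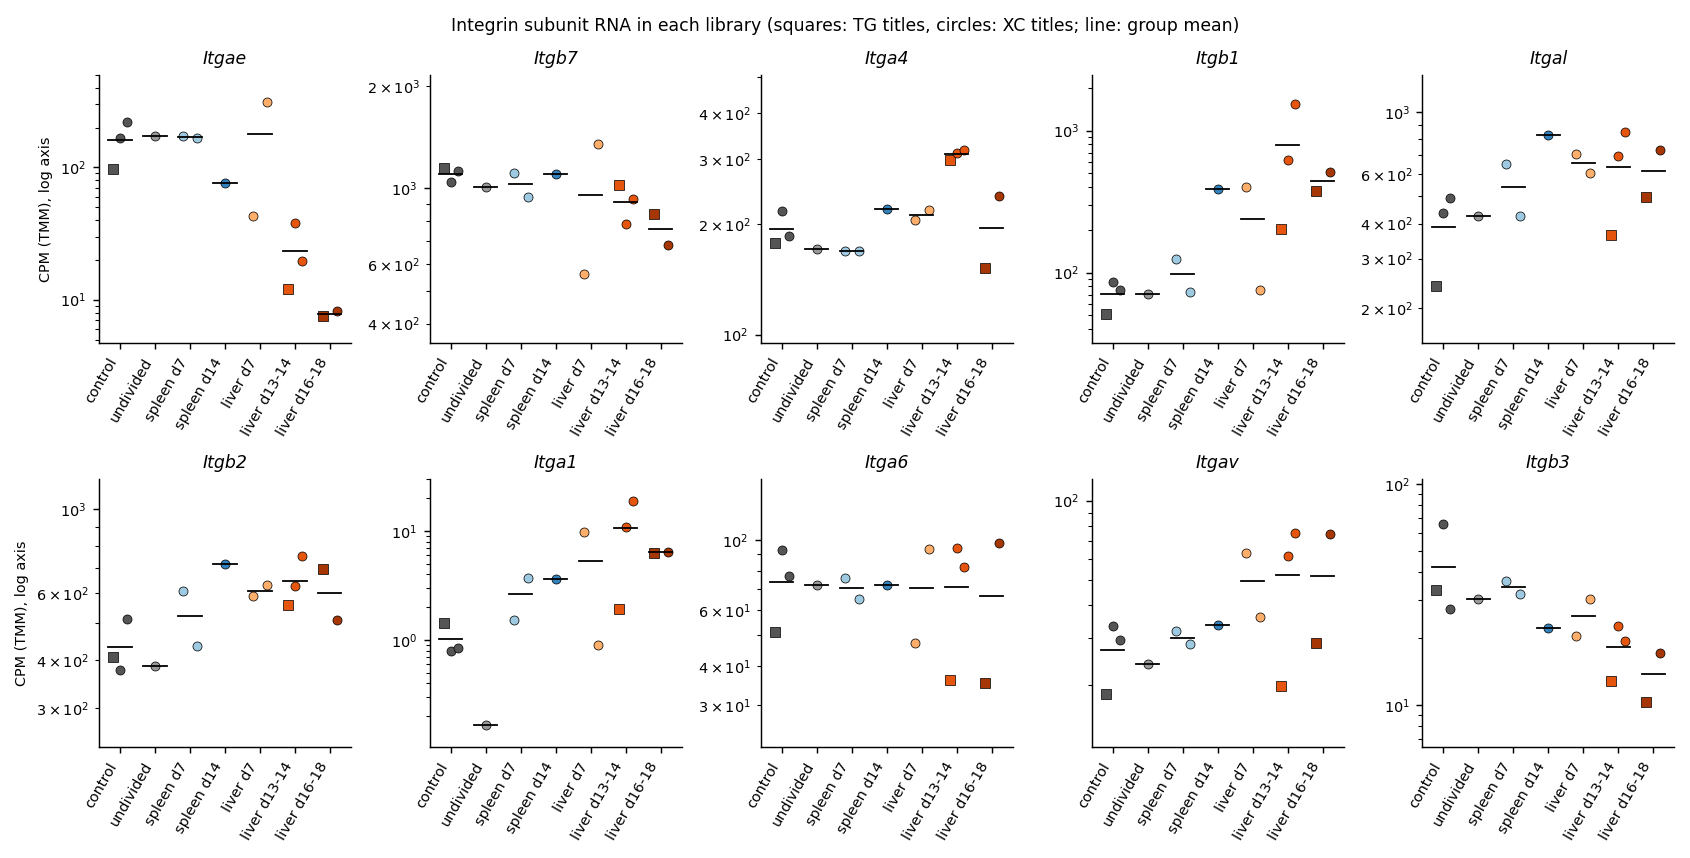
RNA level of each of the 10 integrin subunits (CPM scaled by TMM, log axis) in the 14 low-input libraries by group. Points are libraries (squares TG titles, circles XC titles) and lines are group means. Itgae runs from 314.3 CPM in day 7 liver 2 down to 7.52 CPM in late liver 1, and Itgb1 from 51.0 CPM in control 1 up to 1553 CPM in mid liver 3.

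Itga4, the alpha chain that joins either beta chain, was at 177.2, 216.9 and 184.8 CPM in control. In mid liver it was at 297.1, 311.9 and 317.7 CPM, above every other low-input library, though in TPM mid liver 1 (35.8) lay within the control range of 30.2 to 51.4. In late liver it was at 151.7 and 238.1 CPM, on either side of the control range. The day 7 liver libraries held 204.4 and 218.2 CPM, the spleen libraries 168.4 to 219.1 CPM and undivided cells 171.0 CPM. The fitted log2 difference from control was 0.68 (SE 0.17) in mid and 0.04 (SE 0.19) in late liver. Itga4 RNA was thus higher at the mid time point in libraries of both title series (0.75 within TG and 0.65 within XC), while its late value had a different sign in each series (-0.22 and 0.25).

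The LFA-1 chains both had higher mean CPM in mid and late liver than in control, but with overlap. Itgal was at 239.5, 434.9 and 493.9 CPM in control, at 363.1, 694.5 and 850.5 CPM in mid liver and at 497.7 and 733.4 CPM in late liver. Late liver libraries lay above every control on this scale, mid liver 1 did not, and the day 14 spleen library held 830.0 CPM. The fitted log2 difference of Itgal was 0.86 (SE 0.24) in late and 0.69 (SE 0.21) in mid liver. Itgb2, the beta chain that Itgal shares with the myeloid integrins, was at 408.0, 377.4 and 514.4 CPM in control, at 559.0, 626.4 and 751.0 CPM in mid liver and at 694.4 and 510.0 CPM in late liver. With TMM scaling mid liver lay above control and late liver overlapped it, but without it mid liver 1 (455.4 CPM, against 564.8 CPM in control 3) overlapped control as well, as it did in TPM. The fitted difference of Itgb2 was 0.57 (SE 0.22) in mid and 0.48 (SE 0.25) in late liver. In TPM its late liver mean was not higher (145.2, beside 148.4 in control).

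Itga1, the alpha chain of the collagen receptor VLA-1, was scarce in every library. It was at 1.44, 0.801 and 0.844 CPM in control (96, 41 and 26 counts) and at 0.166 CPM in undivided cells (5 counts). In liver it was at 9.83 and 0.909 CPM at day 7, at 1.93, 10.9 and 18.9 CPM in mid and at 6.30 and 6.49 CPM in late libraries. All 5 mid and late libraries and all 3 leukemia spleen libraries (1.54, 3.71 and 3.61 CPM) lay above every control. The fitted log2 difference was 3.14 (SE 1.06) in mid and 2.64 (SE 1.02) in late liver, and within the TG series the mid difference was 0.42 beside 4.13 within XC. Without control 1 the late difference was 3.96, and without any 1 library it ran from 2.29 to 3.96 in late and from 2.52 (without mid liver 3) to 4.03 (without mid liver 1) in mid liver.

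Itga6, an alpha chain of laminin receptors, ran from 35.3 CPM in late liver 1 to 97.5 CPM in late liver 2, so the 2 libraries of 1 group spanned the whole range. Day 7 liver libraries 1 and 2 (47.1 and 93.3 CPM) lay below and above every control (51.1 to 93.2 CPM). Its fitted log2 difference was -0.10 (SE 0.28) in late and -0.15 (SE 0.25) in mid liver. The TG libraries held the lowest Itga6 within control, mid and late liver. Itgav, the alpha chain of the vitronectin receptors, was at 18.5, 33.4 and 29.6 CPM in control, at 19.8, 61.4 and 75.6 CPM in mid and at 28.9 and 74.5 CPM in late liver. The TG libraries were again lowest, and liver and control overlapped. Its fitted difference was 1.01 (SE 0.28) in late and 0.78 (SE 0.26) in mid liver. Within the TG series the values were 0.64 and 0.10, and within XC they were 1.25 and 1.12.

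Itgb3, the beta chain that joins Itgav and, in platelets, Itga2b, was lower in mid and late liver. It was at 33.2, 66.0 and 27.1 CPM in control, at 20.5 and 30.1 CPM in day 7 liver, at 12.8, 22.8 and 19.4 CPM in mid and at 10.3 and 17.2 CPM in late liver. All 5 mid and late liver libraries, day 7 liver 1 and the day 14 spleen library (22.2 CPM) lay below every control, day 7 liver 2 lay within the control range, and the day 7 spleen libraries (36.5 and 31.7 CPM) did too. Its fitted log2 difference from control was -1.54 (SE 0.35) in late and -1.22 (SE 0.30) in mid liver. Control 2, the highest for Itgb3, also held the highest platelet and megakaryocyte sum of 7 genes (15.0 CPM, against 0.767 to 11.7 CPM elsewhere, with Itga2b its most abundant gene at 4.83 CPM), and the part of that RNA in the Itgb3 value was not tested.

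Among the 10 genes, Itgb1, Itgal and Itga1 were higher and Itgae, Itgb7 and Itgb3 lower in late liver without overlap with control, where 27.9% and 28.1% of all tested genes lay above and below control in the same way. For Itgal this rests on the TMM scaling: late liver 1 (497.7 CPM, against 493.9 CPM in control 3) was at 359.5 CPM without it, against 449.6 and 542.3 CPM in controls 2 and 3, and overlapped control in TPM as well. With mid and late liver libraries together, Itgb1 and Itga1 lay above and Itgae, Itgb7 and Itgb3 below control, and 18.8% and 18.2% of tested genes did so. In TPM, Itga1 and Itgb7 overlapped control there. In leukemia spleen Itga1 lay above control (5.22% of tested genes) and none of the 10 lay below (6.18% of tested genes), and in TPM Itgb1 lay above control there too. These shares serve as a scale only, since the genes were chosen with these values known. The standard deviation of log2 CPM over the 14 libraries was 1.85 for Itgae, 1.78 for Itga1 and 1.52 for Itgb1, larger than for 94.9%, 94.4% and 91.5% of tested genes. For Itgb7 and Itgb2 it was 0.33, beside a median of 0.62 over all tested genes.

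**Figure D2:**
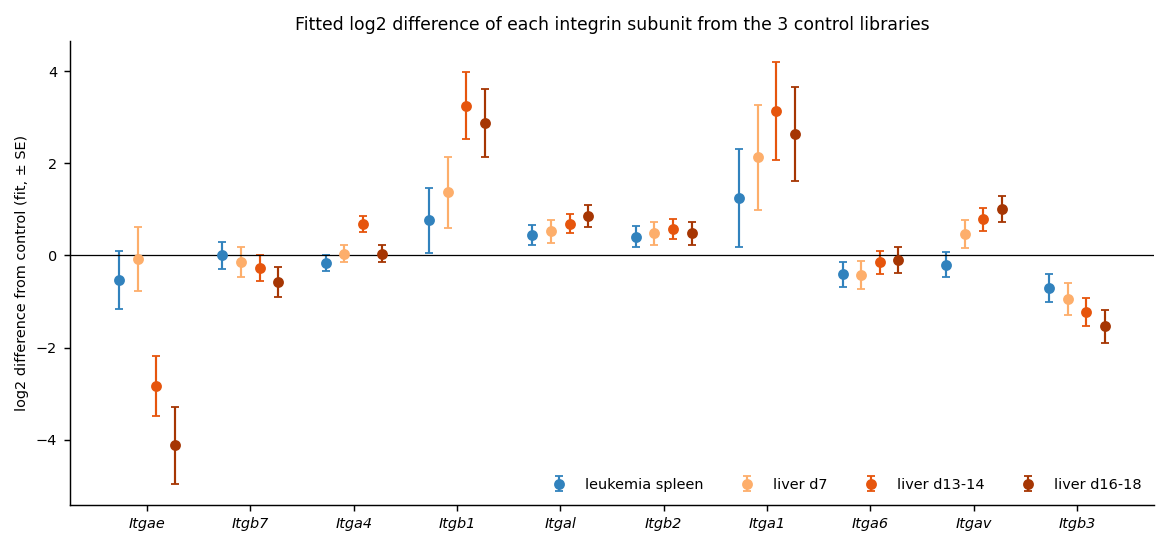
Fitted log2 difference of each integrin subunit from the 3 control libraries (points, ± SE) in leukemia spleen, day 7 liver, mid liver and late liver. Itgae reaches -4.12 and Itgb1 2.88 in late liver, while Itga6 stays between -0.42 and -0.10 in the 4 comparisons, which share their controls.

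In leukemia spleen (3 libraries against 3 controls) the fitted log2 difference was -0.53 (SE 0.63) for Itgae, 0.76 (SE 0.71) for Itgb1 and 1.25 (SE 1.06) for Itga1. In day 7 liver it was -0.08 (SE 0.70) for Itgae, 1.37 (SE 0.77) for Itgb1 and 2.13 (SE 1.14) for Itga1. Both sets of values are means over unlike libraries. Day 14 spleen held 5.49 times the control mean of Itgb1 and the control mean of Itgae was 2.11 times its level, whereas day 7 spleen held 1.39 times the control mean of Itgb1 and 1.04 times that of Itgae. Day 7 liver 1 had Itgae and Itgb7 below and Itgb1 and Itga1 above every control, and day 7 liver 2 had Itgae and Itgb7 above every control with Itgb1 and Itga1 within the control range. In day 7 liver libraries 1 and 2, Itgal was at 708.4 and 604.2 CPM, Itgb2 at 589.3 and 630.7 CPM and Itgav at 63.4 and 36.0 CPM. No share of all tested genes is given for day 7 liver, so these placements against control have no scale.

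Per length of transcript, Itgb7 was the most abundant of the 10 in every group, at 466.6 ± 85.4 TPM in control (SD, n = 3), 357.7 ± 52.6 TPM in mid liver (n = 3) and 234.0 ± 65.9 TPM in late liver (n = 2). Itgb1 ranked 7 of 10 in control at 19.6 ± 6.97 TPM. In mid liver it ranked 2 of 10 at 208.5 ± 186.0 TPM, next to Itgb2 at 207.2 ± 76.6 TPM, and the spread of both makes that order uncertain. In late liver it ranked 4 of 10 at 95.3 ± 47.4 TPM, next to Itgal at 96.3 ± 52.4 TPM. Itgae ranked 5 of 10 in control at 40.5 ± 20.6 TPM and 9 of 10 in late liver at 1.43 ± 0.607 TPM. Itga1 was last in every group, at 0.212 ± 0.0616 TPM in control.

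The beta chains open to Itga4 stood in another ratio in liver than in control. Itgb1 made up 2.90% to 5.05% of the summed TPM of Itgb1 and Itgb7 in the 3 controls, 3.95% in undivided cells and 4.86% and 6.53% in day 7 spleen. It made up 18.5% in day 14 spleen, 29.3% and 3.33% in day 7 liver, 12.8% to 50.2% in mid liver and 24.8% and 31.5% in late liver. The 5 mid and late libraries lay above every control, and 1 of them reached equal TPM of the 2 chains. Itgae made up 4.84% to 9.85% of the sum of Itgae and Itgb7 in control, 0.655% to 2.51% in mid liver and 0.532% and 0.659% in late liver. Itga4 made up 67.9% to 72.3% of the sum of Itga4 and Itgb1 in control. Its share was 30.4% and 72.8% in day 7 liver, 14.0% to 44.6% in mid liver and 22.7% and 27.3% in late liver. The LFA-1 chains had overlapping shares. Itgal made up 27.0% to 37.7% of the sum of Itgal and Itgb2 in control, 30.8% to 37.8% in mid liver and 32.4% and 44.4% in late liver. Itgav made up 64.9% to 79.2% of the sum of Itgav and Itgb3 in control and 85.0% to 93.5% in mid and late liver. These TPM sum all transcripts of a gene. The most abundant Itga4 transcript, Itga4-203, is annotated as a processed transcript and not as protein-coding. It held a mean 34.7% of Itga4 TPM in control and 41.6% in mid and late liver. The Itga4 shares are therefore not shares of coding RNA alone. RNA shares do not give the share of paired protein at the cell surface.

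**Figure D3:**
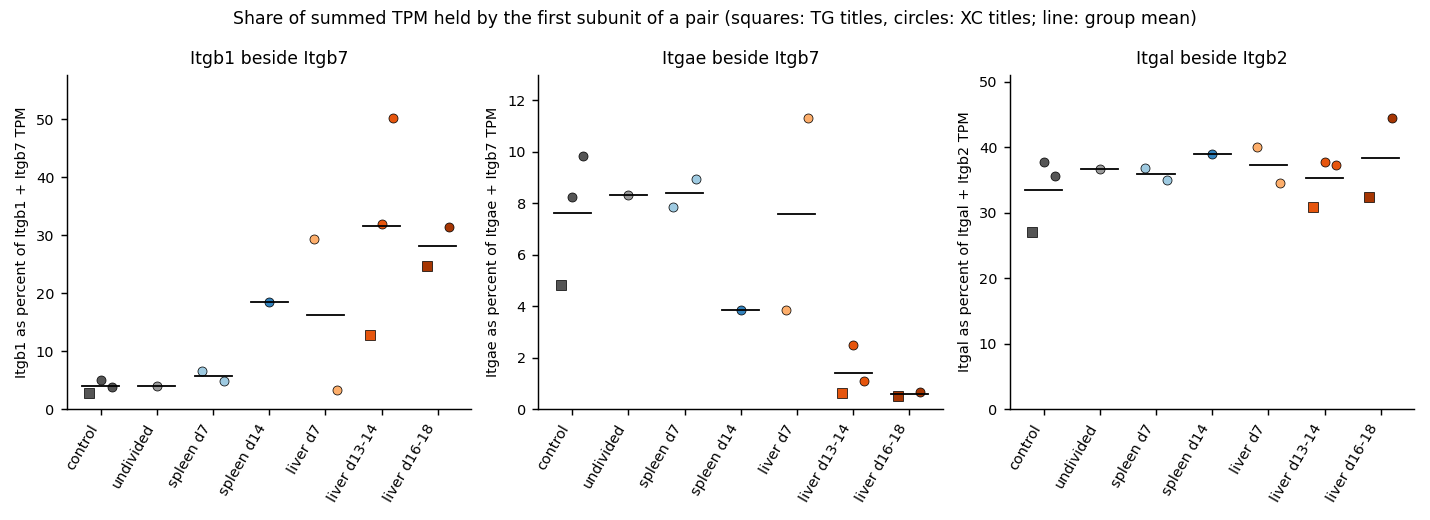
Percent of the summed TPM of 2 partner or competitor chains held by the first of them, by group. Points are libraries (squares TG titles, circles XC titles) and lines are group means. The Itgb1 share is at most 5.05% in control and reaches 50.2% in mid liver 3, the Itgae share is at most 2.51% in mid and late liver, and the Itgal share overlaps between all groups with more than 1 library.

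The comparisons that do not use the controls share the libraries on which the genes were chosen, so they too are given for the 10 genes as differences with SE and without tests. Between late and mid liver (2 against 3 libraries), 0% of the 15465 genes passed at an adjusted p of 0.05 in edgeR's quasi-likelihood test (767, or 4.96%, had an unadjusted p under 0.05, and DESeq2 called 53 genes). Itga4 had a log2 difference of -0.65 (SE 0.19), Itgae of -1.29 (SE 0.74) and Itgb1 of -0.38 (SE 0.78). In CPM the mid and late libraries of Itgae and of Itga4 did not overlap, whereas those of Itgb1 did. In TPM those of Itga4 overlapped too (35.8 in mid liver 1, 48.3 in late liver 2). No share of all tested genes is given for this overlap, so it has no scale. The Itgb1 difference was -1.03 without mid liver 1 and 0.28 without mid liver 3.

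Between day 7 liver and day 7 spleen (2 against 2 libraries, all XC), 0% of tested genes passed in edgeR (1395, or 9.02%, had an unadjusted p under 0.05, and DESeq2 called 61 genes). Itgav had a log2 difference of 0.72 (SE 0.32), Itgae of 0.08 (SE 0.74) and Itgb1 of 1.27 (SE 0.81). These values average the unlike liver libraries. Without day 7 liver 2 the Itgae difference was -1.98 and without day 7 liver 1 it was 0.89, and that of Itgb1 was 2.02 and -0.40 in the same order.

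Transcript use within a gene was not part of the choice of genes and was tested for the 7 members with at least 2 transcripts above 10% of the gene's TPM. The share of the most abundant transcript in mid and late liver (5 libraries) against control (3) gave no adjusted p under 0.05 in a two-sided exact permutation test, whose smallest possible p is 0.0357. With 7 tests a single gene at that p would have an adjusted p of 0.25. As 6 genes would have to reach that p for any to pass, this test could hardly have made a call. Its 56 arrangements took no account of the title series, which was a term in the edgeR fits. Itgae-201, a protein-coding transcript, held 84.6% ± 2.34 of Itgae TPM in control and 85.9% ± 3.31 in mid and late liver (exact permutation p = 0.536, adjusted p = 0.75). Itgb1-201 held 72.9% ± 15.7 and 70.3% ± 8.75 (exact permutation p = 0.75, adjusted p = 0.875). The largest difference in points was that of Itga1-201, 21.9% ± 8.51 in control and 38.3% ± 18.5 in mid and late liver (exact permutation p = 0.25, adjusted p = 0.583). Itga4-203, a processed transcript of 1826 bases, held 34.7% ± 10.6 and 41.6% ± 4.39 of Itga4 TPM (exact permutation p = 0.25, adjusted p = 0.583). Itgav-206, a protein-coding transcript of only 688 bases, held 41.2% ± 21.3 and 34.6% ± 25.1 of Itgav TPM (exact permutation p = 0.536, adjusted p = 0.75).

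Itgal-201 held 50.2% ± 1.68 of Itgal TPM in control and 37.3% ± 15.5 in mid and late liver (exact permutation p = 0.179, adjusted p = 0.583), and its transcripts divided by title series. Itgal-203 held 49.3%, 83.2% and 72.5% in the TG libraries (control 1, mid liver 1 and late liver 1). In the XC libraries of control, mid and late liver it held 2.37% to 14.5%. Itgal-202 held 0.438% to 1.01% in the TG libraries and 23.7% to 35.3% in those XC libraries. The summed level of Itgal is what is compared above, and the low Itgal of control 1 and mid liver 1 is that of TG libraries.

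**Figure D4:**
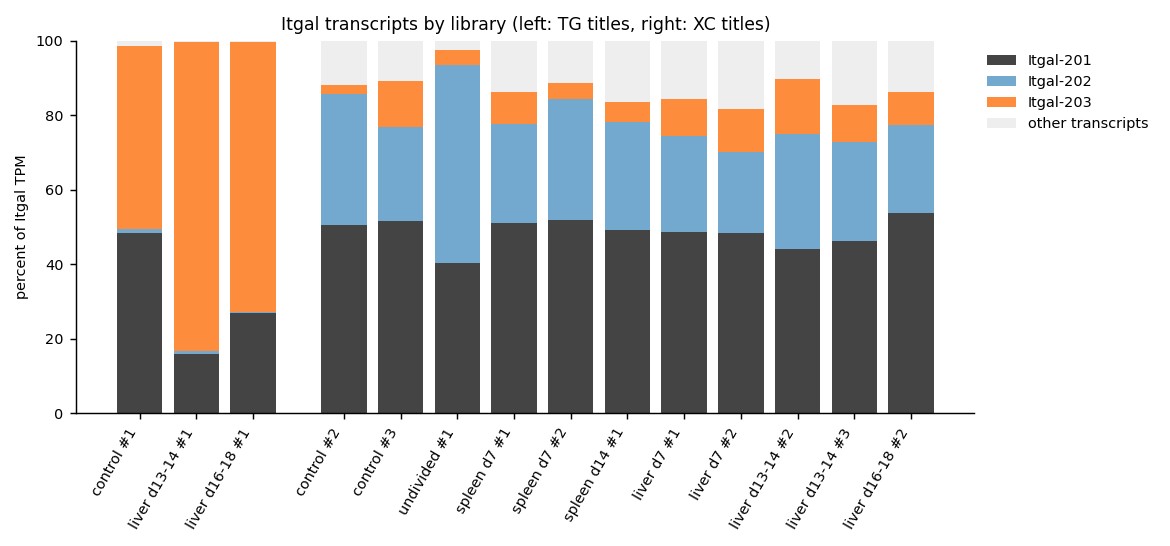
Percent of Itgal TPM held by 3 coding transcripts and by all others in each low-input library, with the 3 TG libraries at the left and the 11 XC libraries at the right. Itgal-203 holds 49.3% to 83.2% in the TG libraries, and at most 14.5% in the XC libraries of control, mid and late liver.

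The rest of the integrin system was counted over 4 lists in edgeR's test, in which 34.2% of the 15465 genes passed between late liver and control (19.9% higher and 14.3% lower) and 29.3% between mid liver and control (17.5% higher and 11.8% lower). These calls depended on single libraries: 5291 genes passed in all, 1374 without control 1, 678 without late liver 1 and 0 without late liver 2, and 8 passed in the XC libraries alone. Between mid liver and control 4525 passed, but 5 without control 1, 0 without control 2, 3 without mid liver 1 and 32 without mid liver 3.

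Other integrin subunits had 14 of 16 genes tested, and 1 rose and 1 fell in late liver. Itga3, an alpha chain of laminin receptors, rose from 2.17 ± 0.353 CPM in control (SD, n = 3) to 12.8 ± 2.82 CPM in late liver (n = 2), a log2 difference of 2.57 (SE 0.41, edgeR adjusted p = 0.00466), and in mid liver it passed too (1.85, adjusted p = 0.0141). Itga10, a collagen receptor chain, fell from 1.28 ± 0.785 to 0.377 ± 0.0521 CPM (log2 difference -1.77, SE 0.58, edgeR adjusted p = 0.0391). The other 12 did not pass, among them Itgax at -0.74 (SE 1.66) in late liver. In mid liver Itgax was at 1.46 (SE 1.47) and did not pass there. The median log2 difference of the list in late liver was -0.79, beside -0.04 over all tested genes. The list had 0 to 4 calls when 1 library was left out, and Itga10 lost its call in 11 of 23 alternatives.

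Integrin activation and adaptor genes had all 34 genes tested, and 8 rose, 6 fell and 20 did not pass. Ptk2, which encodes focal adhesion kinase, fell from 15.1 ± 2.50 to 1.57 ± 0.0646 CPM (log2 difference -3.21, SE 0.42, edgeR adjusted p = 0.00323). Rasgrp2 and Rasgrp1, exchange factors that act on Rap and Ras, fell by 1.53 (SE 0.38, adjusted p = 0.0151) and 1.38 (SE 0.28, adjusted p = 0.00805) on the log2 scale. Rap1a, the small GTPase that switches integrins on, rose by a log2 difference of 1.03 (SE 0.24, adjusted p = 0.0124), the adaptor Dok1 by 1.01 (SE 0.23, adjusted p = 0.0116) and the actin regulator Vasp by 0.90 (SE 0.20, adjusted p = 0.0114). Tln1 and Fermt3, which encode the talin and the kindlin of T cells that bind beta chain tails, had differences of 0.14 (SE 0.26) and 0.43 (SE 0.21) and did not pass. The list median was -0.15. In mid liver 4 rose and 7 fell, with Ptk2 at -1.87 (SE 0.34, adjusted p = 0.0128).

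Integrin ligands had 17 of 24 genes tested, and 3 rose and 2 fell. Spp1, which encodes osteopontin, a ligand of Itgav, Itga4 and Itgb1 receptors, was at 0.839, 0.274 and 0 CPM in control, 27.7 and 0.125 CPM in day 7 liver, 54.3 to 82.9 CPM in mid liver and 241.5 and 360.3 CPM in late liver. It rose by a log2 difference of 9.57 in the fit (SE 1.78, edgeR adjusted p = 0.00872), a size that depends on the near absence of counts in control. Lamc1, a laminin chain, rose from 0.479 ± 0.318 to 11.2 ± 4.83 CPM (4.78, SE 1.11, adjusted p = 0.0138). Vtn, which encodes vitronectin made by hepatocytes, rose from 1, 0 and 5 counts in control to 934 and 179 counts in late liver (7.27, SE 1.76, adjusted p = 0.0161). The hepatocyte gene Alb was at 131.7 CPM in late liver 1, 85.9 CPM in mid liver 1 and 24.5 CPM in late liver 2. Vtn was at 20.4, 13.3 and 5.08 CPM in the same libraries. Control 1 held 319.0 CPM of Trf, another gene of the hepatocyte list, and 1 count of Vtn. The part of hepatocyte RNA in the rise of Vtn was not tested. Vcam1, the ligand of Itga4 with Itgb1, fell by 5.88 on the log2 scale (SE 1.74, adjusted p = 0.035), from 289.0, 34.0 and 4.58 CPM in controls 1 to 3 to 0.915 and 1.22 CPM in late liver. Its control values ran with the macrophage sums of those libraries (1008, 149.0 and 10.5 CPM), and the part of macrophage RNA in this fall was not tested. The call of Vcam1 was lost in 12 of 24 alternatives, among them without control 1 (-4.19), late liver 1 (-4.49) or late liver 2 (-7.61), and without control 3 it was -6.76. Without control 1 Vtn was at 5.58 and no longer passed (edgeR adjusted p = 0.0673), and without control 3 it was at 10.85. Spp1 was at 8.79 without late liver 2 and no longer passed (edgeR adjusted p = 0.0688), and at 10.93 without control 1 and 10.34 without late liver 1 it passed. Icam1, the ligand of LFA-1, fell from 156.7 ± 26.9 to 88.3 ± 18.3 CPM (-0.86, SE 0.24, adjusted p = 0.0236). The list median was 0.24.

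The Itgae regulators and tissue residency genes were all tested, and 2 of 21 rose and 6 fell. Tgfbr1 and Tgfbr2, the receptor chains for TGF-beta, the cytokine known to induce Itgae in T cells, fell by 1.65 (SE 0.23, edgeR adjusted p = 0.00398) and 1.39 (SE 0.38, adjusted p = 0.0201) on the log2 scale. Runx1 fell by 1.09 (SE 0.23, adjusted p = 0.00887), while Runx3, the RUNX factor of CD8+ T cells, had a difference of -0.28 (SE 0.21) and did not pass. Tbx21, which encodes T-bet, a factor known to act against Itgae transcription, rose from 9.90 ± 4.19 CPM in control to 186.9 ± 21.8 CPM in mid liver (4.25, SE 0.89, adjusted p = 0.016) and 135.1 ± 44.2 CPM in late liver (3.82, SE 0.93, adjusted p = 0.0188). Prdm1, which encodes Blimp-1, rose from 1.39 ± 0.258 to 16.7 ± 10.5 CPM in late liver (3.52, SE 0.59, adjusted p = 0.00503). The 3 largest falls were those of Ccr9, a gut-homing chemokine receptor, from 199.3 ± 23.9 to 3.24 ± 2.50 CPM (-6.00, SE 1.04, adjusted p = 0.00723), S1pr1, the receptor for exit from tissue, from 684.2 ± 218.8 to 72.3 ± 56.4 CPM (-3.29, SE 0.65, adjusted p = 0.00886), and Klf2, the factor that drives S1pr1, from 1172 ± 328.6 to 289.8 ± 71.7 CPM (-2.01, SE 0.55, adjusted p = 0.0229). Cxcr6 and Zfp683, which mark resident T cells of the liver, had differences of 1.24 (SE 0.54) and 0.48 (SE 0.59) and did not pass. Cd69, another gene of this list, ran the other way at -1.11 (SE 0.43) and did not pass either (edgeR adjusted p = 0.0704). Without late liver 2 the differences of Ccr9 (-5.09) and Prdm1 (2.90) no longer passed (edgeR adjusted p = 0.0655 and 0.0683), and without late liver 1 that of Ccr9 was -7.19. The list median was -0.47. Across day 7 liver libraries 1 and 2, Tbx21 was at 139.2 and 14.3 CPM and Ccr9 at 34.1 and 191.2 CPM. Over the same pair S1pr1 ran from 181.5 to 681.4 CPM and Klf2 from 357.6 to 1354 CPM. The pair was thus unlike for these genes as it was for Itgae and Itgb1. The part of any gene of this list in the Itgae level was not tested.

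**Figure D5:**
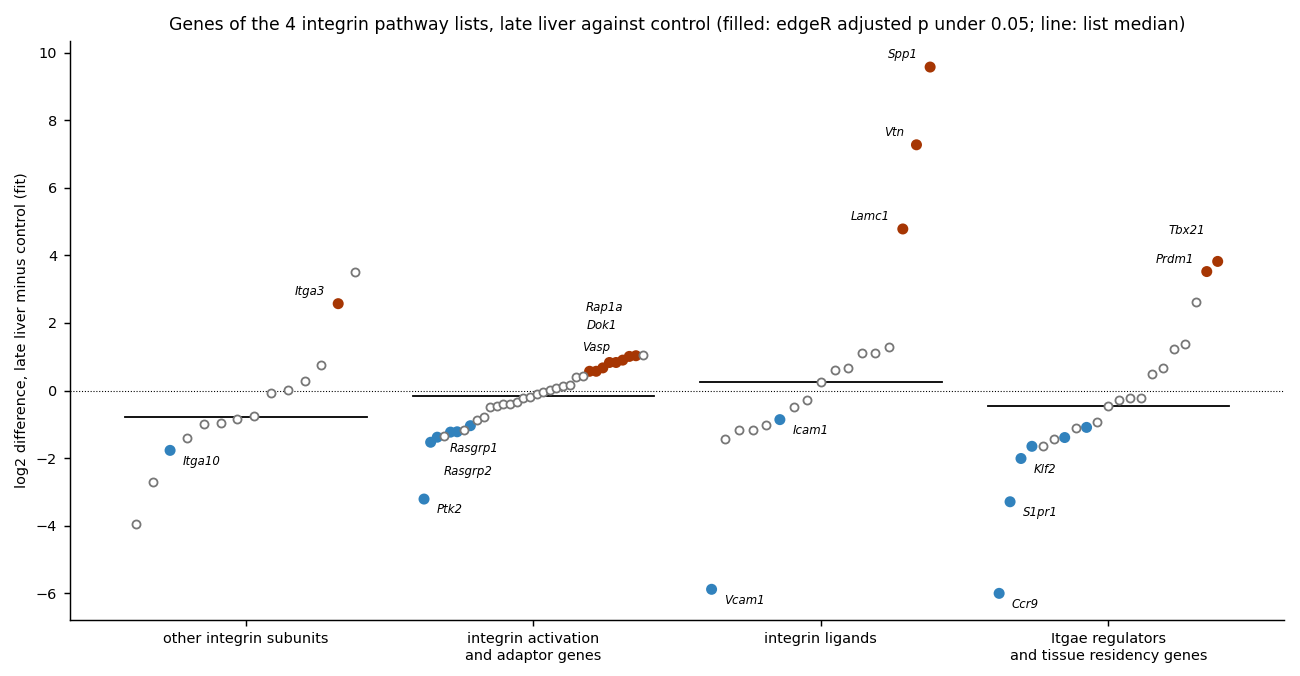
Fitted log2 difference between late liver and control for the tested genes of the 4 integrin pathway lists (points; filled where the edgeR adjusted p was under 0.05, red higher and blue lower), with the median of each list as a line. Spp1 at 9.57 and Ccr9 at -6.00 mark the ends, and 8 activation and adaptor genes rise while 6 fall.

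By the pattern over the 14 libraries (Pearson r of log2 CPM, among 5882 genes with a mean log2 CPM of at least 5), the genes most like Itgae were Als2cl (r = 0.992), Kif1b (0.988), Tepsin (0.986), Itpr2 (0.983) and Adgrg5 (0.982). Als2cl, for example, had a mean of 230.6 CPM in control, 68.0 in mid and 34.6 in late liver. Those most like Itgb1 were Lmnb1 (0.973), Copb2 (0.969), Nsmaf (0.962), Hsp90b1 (0.959) and Tfdp1 (0.957), and Lmnb1 had 26.8 CPM in control, 191.3 in mid and 187.2 in late liver. Itga4 had no gene as close, with Ncapd3 first (0.764), then Dnajc1 (0.752), Eri1 and Baz1b (0.747 each) and Adam19 (0.740). These values describe libraries that share title series and tissue.

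Cells other than T cells carry several of these integrins. The hepatocyte list of 10 genes summed to 427.8 and 101.6 CPM in late liver, 255.1, 25.6 and 4.24 CPM in mid liver, 10.4 and 3.26 CPM in day 7 liver and 319.2, 22.1 and 1.07 CPM in control, where Trf was the most abundant gene of the list (319.0, 21.9 and 0.747 CPM) and Alb was at 0 to 0.0325 CPM. Of its 7 tested genes 6 rose in late liver. The stellate cell and fibroblast list of 6 genes, cells rich in Itgb1 and Itga1, summed to 1.34 to 12.8 CPM in all libraries and 1.34 to 5.25 CPM in mid and late liver, where Pdgfrb or Col1a1 was its most abundant gene, and none of its 4 tested genes rose. The liver endothelium list of 7 genes summed to 67.2 to 188.2 CPM, of which Pecam1 made 65.8 to 187.4 CPM, and Stab2, its defining scavenger receptor, was at 0 to 0.174 CPM in mid and late liver. The macrophage list of 9 genes summed to 4.09 to 65.8 CPM outside controls 1 and 2, where Cd68, Csf1r or Lyz2 was its most abundant gene. The dendritic cell list of 6 genes, a type that can carry Itgae, summed to 54.1, 47.7 and 10.4 CPM in controls 1 to 3 and 10.0 to 34.2 CPM elsewhere. Of its 4 tested genes 2, Flt3 and Xcr1, fell in late liver. Itgax, itself an integrin gene of this list, was at 8.61, 10.45 and 0.357 CPM in controls 1 to 3. It was at 25.2 and 0.094 CPM in day 7 liver, 28.7, 15.8 and 11.1 CPM in mid liver and 4.815 and 3.545 CPM in late liver. In day 7 liver 1 and in mid liver it was the most abundant gene of the list. None of the marker lists was made for the leukemia cells, so RNA from them was not surveyed. The paper names the liver as a primary site where this leukemia progresses, and the controls were taken without leukemia. The part of leukemia cells and of these other cell types in the integrin values, or in those of Spp1 and Lamc1, was not tested.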

How the data were processed

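The authors sorted TCRTg101 T cells by flow cytometry, sequenced low-input RNA libraries and quantified transcripts with kallisto (version not given in the sources used here). The deposited values are estimated counts (expected counts, not whole) and deposited TPM per transcript. Estimated counts were summed per gene over GENCODE M21 (GRCm38) transcripts, which matched 98.25% of transcripts and 99.01% to 99.29% of counts, then over the runs of a library, and were rounded. TPM of a library is the mean of its runs weighted by counts. Kallisto splits reads among similar transcripts, an error the tests do not include. The 14 libraries held 22918996 to 71358287 counts (median 34349318), so the number of libraries, not counting error, limits the precision, except for genes with few counts.

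The filter kept the 15465 genes that reached 10 counts in 6 or more of the 14 libraries. They were tested with edgeR 4.0.16 (TMM, robust quasi-likelihood, two-sided) in R 4.3.3, with group and title series as terms and Benjamini-Hochberg adjustment over all tested genes. The title series was taken to stand for the authors' batch, which the labels do not give. In simulated data for late liver against control, this test recovered 57.4% of 197 genes given a log2 fold change of 2 (among 15268) and 80.8% of 198 given 4 (among 15277), with 3.4% and 8% of calls false. The simulation gave each gene 1 mean in all libraries, apart from the changed genes, with no effect of tissue or title series. In the data 34.2% of tested genes passed, so these rates do not describe the test on the real libraries. DESeq2 1.42.0, other normalization, filters, terms, controls and runs, and each library left out were the alternatives. Python 3.11.15, scipy 1.17.1 and matplotlib 3.10.9 made permutation tests and plots.

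The 10 genes, the 4 pathway lists and the 12 marker lists were chosen with earlier results of these data known. Named genes were the 10 members and, per pathway list, up to 3 genes with the largest rise and 3 with the largest fall. The pathway genes were taken from those with an adjusted p under 0.05 between late liver and control. Itgax, Tln1, Fermt3, Tgfbr1, Tgfbr2, Runx1, Runx3, Cxcr6, Zfp683 and Cd69 were named after their values were seen.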

Additional observations from a re-analysis of the deposited data

Results flagged for a closer look

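The oligo-dT library, which no comparison used, held 304.1 CPM of Itga4 (without TMM scaling), above each control library on the same scale, of which the highest was 224.2 CPM and the mean 203.0 CPM. In TPM it held 34.2, within the control range of 30.2 to 51.4. The other 9 integrin subunits did not exceed the highest control there. Some lay below every control on that scale: Itgb7 (766.7 CPM, lowest control 1076), Itgb2 (317.2, lowest control 390.2), Itga6 (46.7, lowest control 52.5) and Itgae (98.2, lowest control 99.7). In TPM Itga6 (16.9) and Itgae (25.8) lay within the control range. No share of all tested genes is given for the oligo-dT library, so these placements have no scale.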

How the results depend on the processing

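The log2 differences of the 10 integrins in mid and late liver from control moved by more than the spread between libraries in 12 of 480 recomputed values and differed in sign in 8, all for Itga4 in late liver or for Itga6. The 18 named pathway genes kept their direction in all 422 recomputed values and lost their call in 79, of which 17 were without late liver 2, 17 in XC libraries alone, 12 without late liver 1 and 10 without control 1. DESeq2 called 53 genes between late and mid liver, 61 between day 7 liver and spleen, and 13 (in place of 8) of the Itgae regulators and residency genes. Without the title series term 2936 genes passed in late and 1764 in mid liver, with 1 other subunit and 5 activation genes. With no count filter 325 genes passed between late and mid liver and 984 between day 7 liver and spleen, with 4 other subunits and 15 regulators. Other subunits had 1 call with filterByExpr and 1 with counts scaled from TPM. XC libraries alone gave 8 late and 0 mid calls, and 0 in each of the 4 lists. Without both day 7 liver libraries, an alternative added after the data were seen, 3 ligands passed in place of 5. Leaving out 1 library gave 0 to 6209 late calls, 0 to 5569 mid calls, 0 to 4 other subunits, 0 to 15 activation genes, 0 to 5 ligands, 0 to 11 regulators and 0 to 971 calls between day 7 liver and spleen. The differences of the 10 integrins from control in day 7 liver and in leukemia spleen were not recomputed. Differences of the 10 genes between the other groups turned sign in several cases. Between late and mid liver, leaving out 1 library gave -1.03 to 0.28 for Itgb1, -0.05 to 0.38 for Itgal, -0.40 to 0.23 for Itgb2, -1.42 to 0.12 for Itga1, -0.25 to 0.24 for Itga6 and -0.04 to 0.40 for Itgav. Without the title series term Itgal was at -0.05, Itga6 at -0.09 and Itgav at -0.02 there, Itgal was at -0.05 in XC libraries alone, and Itga6 at -0.06 with counts scaled from TPM. Between day 7 liver and spleen, leaving out 1 library gave -1.98 to 0.89 for Itgae, -0.88 to 0.39 for Itgb7, -0.40 to 2.02 for Itgb1, -1.53 to 1.90 for Itga1 and -0.58 to 0.41 for Itga6, which was at 0.06 with filterByExpr and 0.01 with no count filter. Where this left a group with 1 library, that library was assumed to vary like the others. The difference in transcript share (points) ran from -0.0237 to 2.34 for Itgae, -9.86 to 5.76 for Itgb1, -9.67 to 4.28 for Itga6 and -18.8 to 0.86 for Itgav without 1 library, and with estimated counts in place of TPM that of Itgb1 was 1.75. The causes were not tested. No paired analysis was possible because the labels give no replicate number that groups share, and do not say which libraries came from 1 mouse.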
